A study of Mus musculus with 9 samples.

Results

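HEI-OC1 is a conditionally immortalised line made from cultured organ of Corti of mice, and the labels call it a line of cochlear hair cells. Its baseline transcriptome was read here in the cells transduced with empty vector (EV), which make up 3 of the 9 RNA sequencing libraries of the study; the other cells carried wild-type LMX1A or its frameshift form, and those 6 libraries enter no value below. Per the labels' protocols, the cells grew as monolayers in serum-containing DMEM, RNA was extracted with Trizol, and TruSeq libraries were made. EV replicates 1, 2 and 3 are named as such by their titles, and the labels do not say whether they came from separate cultures, so the spread given below may be technical. Every EV cell had been through transduction, and the vector and any selection are not given in the sources used here. Mouse Lmx1a was listed at 0 in all 3 EV libraries.

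The deposited values were read as FPKM, a unit inferred from the values because the headers name none. FPKM scales the fragments of a gene by its transcript length in kilobases and by 1e6 fragments sequenced. Levels of different genes are thus set side by side per length. Of 55451 genes in the table, the 21951 of class protein_coding were ranked by their mean over the 3 libraries. A gene is called present here at a mean of at least 1 FPKM. No test was made, because only EV libraries were used: values are means ± SD over 3 libraries, and gene lists are described by how many members were present.

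The cochlea turns sound into nerve signals through hair cells, whose stereocilia carry the transduction channel and whose base holds ribbon synapses. Supporting cells hold them in an epithelium closed by cadherins, claudins and connexins, and fibrocytes of mesenchymal origin line the surrounding wall. The transcription factor ATOH1 starts hair cell differentiation, POU4F3 maintains it, and EYA1 acts earlier in the otic placode. HEI-OC1 was derived from mice with a temperature-sensitive large T antigen, which drives proliferation at a permissive temperature, and the line is widely used to test drugs that damage hearing.

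A mean of at least 1 FPKM was reached by 10706 of 21951 protein-coding genes, or 48.8%. In every library 10506 of them (47.9%) reached it. A further 6727 genes were listed at 0 in all 3 libraries, and the median over all protein-coding genes was 0.725 FPKM. The levels spread widely: 4718 genes stood between 1 and 10 FPKM, 5477 between 10 and 100 FPKM, 499 between 100 and 1000 FPKM and 12 at 1000 FPKM or more. Just inside the limit lay Ybey, Coro1a and Kbtbd3, each at a mean of 1.00 FPKM, and just outside it Ypel1 (0.999 FPKM), C8g (0.998 FPKM) and Map3k1 (0.997 FPKM).

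The libraries were alike in breadth, with 10682, 10707 and 10667 protein-coding genes at 1 FPKM or more in EV replicates 1, 2 and 3. Depth, estimated from the step between low FPKM values within a fixed search range, was about 13.5, 13 and 14 (in units of 1e6 fragments). At that depth 1 FPKM in a transcript of 2 kb stood for about 26 to 28 fragments, and a count of 0 in such a transcript allowed a level of up to about 0.107 to 0.115 FPKM (3 fragments, counting error only). These figures rest on the estimate, and a depth outside the search range would not have been found. EV replicate 1 stood apart: of the present genes, 238 lay over 1.5 times above or below both other libraries, against 63 for EV replicate 2 and 62 for EV replicate 3. Across the present genes, log2(FPKM + 1) correlated at r = 0.995 between EV replicates 2 and 3 and at 0.987 and 0.988 between each of them and EV replicate 1; this is a correlation across genes, which are not independent replicates. The median coefficient of variation was 7.54%. In bulk RNA, fewer cells with a transcript and less of it per cell cannot be told apart.

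The most abundant messages belonged to translation, the mitochondrion, iron storage and the cytoskeleton. The first 20 protein-coding genes made up 8.60 ± 0.88% of all protein-coding FPKM, the first 100 made up 22.3 ± 0.72% and the first 1000 made up 56.2 ± 0.25%. The mitochondrial cytochrome oxidase subunit mt-Co1 headed the list at 7136, 3203 and 3492 FPKM in EV replicates 1, 2 and 3. Its mean of 4610 FPKM rested on replicate 1, and without that library the elongation factor Eef1a1 was highest, at 3852, 3866 and 3736 FPKM in the 3 libraries. Next came Ftl1 (1717 ± 102 FPKM), the ferritin light chain, which with the heavy chain Fth1 (1128 ± 158 FPKM) forms the iron store of the cell. Actb, beta-actin, stood at 1301 ± 65.8 FPKM and Lgals1, the secreted lectin galectin-1, at 1079 ± 127 FPKM. S100a6, a calcium-binding protein of dividing fibroblasts and epithelia, averaged 961 ± 106 FPKM, the chromatin-associated Ptma 879 ± 89.1 FPKM and the chaperone Hsp90ab1 871 ± 26.5 FPKM.

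**Figure D1:**
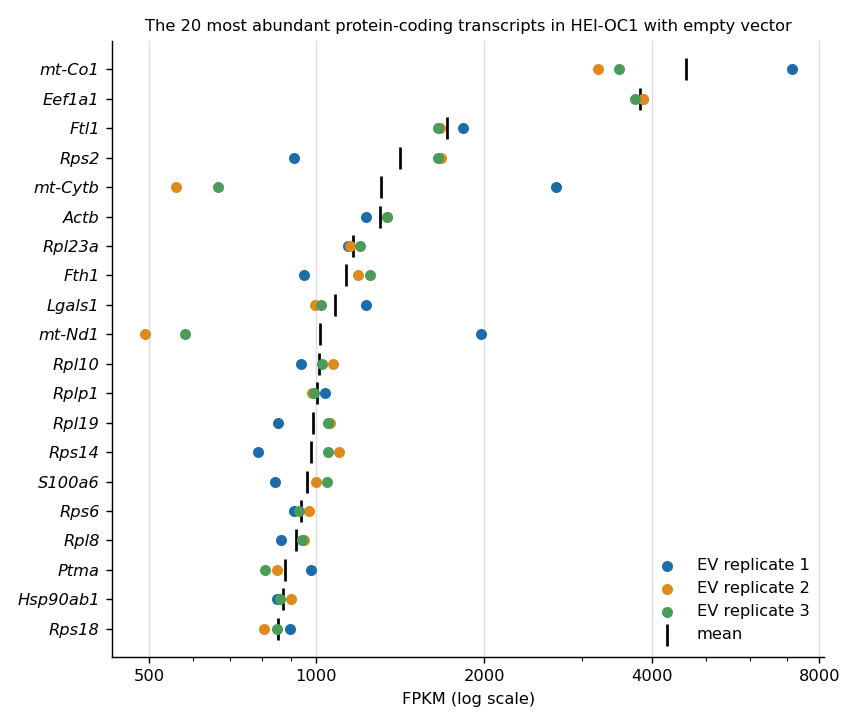
Level of the 20 protein-coding genes with the highest mean, from top to bottom, as FPKM on a log axis; each point is an EV library and the black bar is the mean of the 3. The mitochondrial genes mt-Co1, mt-Cytb and mt-Nd1 lie far to the right in EV replicate 1, while Rps2 lies to the left there.

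Ribosomal proteins filled 9 of the 20 places. The 83 ribosomal protein genes made up 11.3 ± 0.67% of protein-coding FPKM, 80 of them were present, and their median was 377 FPKM. Rps2 had 911 FPKM in EV replicate 1 against 1674 and 1653 FPKM in EV replicates 2 and 3, and Rpl13 had 466, 914 and 888 FPKM, so that both were low in the first library. The tissue-specific copies Rpl3l, Rpl10l and Rpl39l were under 1 FPKM. Many ribosomal protein genes have near-identical processed copies among which reads can be split, which makes their own levels uncertain. The glycolytic enzymes, 19 table entries for 18 genes, made up 1.64 ± 0.07%. Among them were the pyruvate kinase Pkm (793 ± 53.7 FPKM), the lactate dehydrogenase Ldha (760 ± 84.5 FPKM) and Aldoa (598 ± 11.3 FPKM). Aldoa had a second entry under the same name, which held 2.12 FPKM. None of 62 genes of RNA polymerase II, respiratory complex I and the spliceosome was listed at 0. That list was added after the files were read. Its median was 41.4 FPKM, so it cannot check the estimates of genes at low levels.

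The mitochondrially encoded genes had means of at least 1 FPKM in 13 of 13 cases, but 13, 11 and 12 of them reached it in EV replicates 1, 2 and 3, and their means ran over more than 3 orders of magnitude. They took 4.53% of protein-coding FPKM in EV replicate 1, against 1.47% and 1.67% in EV replicates 2 and 3. Between mt-Co1, at the top, and the neighbouring subunits there was a break: mt-Co2 averaged 24.5 FPKM, mt-Atp8 18 FPKM, mt-Co3 15 FPKM, mt-Atp6 13.9 FPKM and mt-Nd4l 7.84 FPKM. These means rested largely on EV replicate 1. Without it mt-Co2 averaged 11.5 FPKM, mt-Co3 11.1 FPKM, mt-Atp6 4.69 FPKM, mt-Atp8 1.75 FPKM and mt-Nd4l 1.08 FPKM. Both mt-Nd4l, at 21.4, 0.960 and 1.20 FPKM in EV replicates 1, 2 and 3, and the lowest gene, mt-Nd3, at 3.09, 0 and 0.218 FPKM, lay on both sides of the limit, and without EV replicate 1 mt-Nd3 averaged 0.109 FPKM. No other protein-coding gene lies between these 6, from position 7013 to 10173 of the mitochondrial genome in GRCm38. Positions 24611535 to 24616197 of chromosome 1 hold 7 genes classed as unprocessed pseudogenes, with means of 4.80 to 19.3 FPKM, such as Gm10925 (38.2, 8.44 and 11.2 FPKM) and Gm29216 (16.3, 13 and 15 FPKM). Whether reads of the low mitochondrial genes were counted there was not tested.

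**Figure D2:**
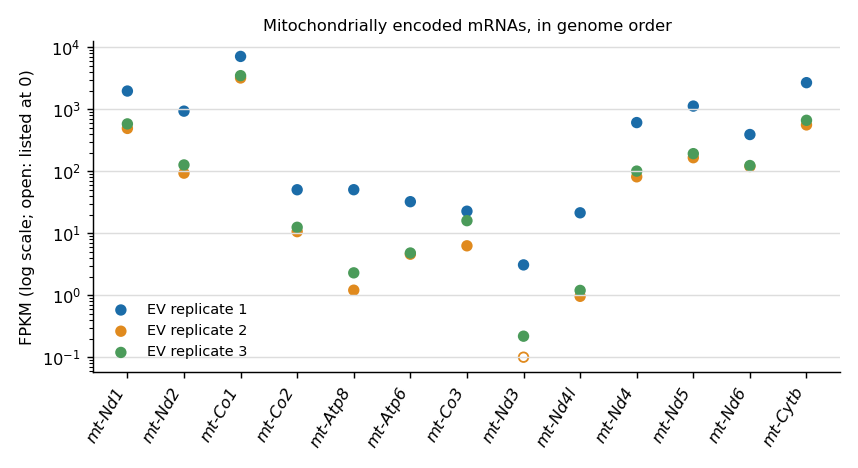
FPKM of the 13 mitochondrially encoded mRNAs on a log axis, in their order along the mitochondrial genome; points are the 3 EV libraries, and the open point stands for a value of 0. EV replicate 1 is highest for every gene, and the 6 genes from mt-Co2 to mt-Nd4l lie at 50.4 FPKM or less in each library.

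The markers of mesenchyme and fibroblasts were the lineage list found most completely, with 28 of 32 members present and a median of 21.9 FPKM, beside 48.8% of genes present and a median of 0.725 FPKM over all protein-coding genes. Vim, which encodes vimentin, the intermediate filament of mesenchymal cells, stood at 722, 783 and 756 FPKM. The secreted matrix protein gene Sparc had 583, 601 and 590 FPKM, and fibronectin, Fn1, had 549, 545 and 546 FPKM. All 3 libraries lay close together for these genes. Fibrillar collagens followed, with Col1a1 at 510 ± 31.0 FPKM, Col3a1 at 362 ± 15.6 FPKM and Col1a2 at 198 ± 9.79 FPKM, together with S100a4, which is also called fibroblast-specific protein, at 454 ± 10.3 FPKM. Acta2, the smooth muscle actin of myofibroblasts, reached 62.7 ± 2.90 FPKM, while the calponin-related Tagln stood at 1.17 ± 0.13 FPKM. Not all fibroblast genes were present: Thy1 and Tcf21 were listed at 0, and Lum and Fap averaged 0.0073 FPKM and 0.026 FPKM.

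Factors linked to the mesenchymal state, a list added after the files were read, were mostly present too, beside 48.8% of all protein-coding genes. Of 7 such factors 6 were present, namely Snai2 (19 ± 2.92 FPKM), Twist1 (14.9 ± 1.47 FPKM), Zeb1 (11.3 ± 1.46 FPKM), Zeb2 (10.5 ± 2.53 FPKM), Snai1 (9.85 ± 0.29 FPKM) and Twist2 (7.64 ± 2.16 FPKM). The SNAI and ZEB proteins are known as repressors of the E-cadherin gene Cdh1, which had 0.040, 0 and 0.016 FPKM. Whether they repress it in these cells was not tested. N-cadherin, Cdh2, had 18.9, 16.4 and 16.7 FPKM and the mesenchymal Cdh11 had 25.1, 22.6 and 23.1 FPKM. They and Cdh24 (3.73 FPKM) were the present members of 23 classical cadherin genes.

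Epithelial markers were under the limit almost throughout, with 1 of 33 present, beside 48.8% of all protein-coding genes, and a median of 0.014 FPKM. The present member was the desmosomal plakophilin Pkp1, at 5.30, 5.23 and 4.79 FPKM. Epcam and Krt18 were listed at 0, and Krt8 had 0.308, 0.133 and 0 FPKM. Krt14, a keratin of basal cells, had 1.24, 0.910 and 0.567 FPKM on both sides of the limit, and Trp63, the basal cell factor, averaged 0.825 ± 0.16 FPKM. Of 49 keratin genes Krt80 alone was present at the limit of 1 FPKM (8.63 ± 1.05 FPKM), though without EV replicate 3 the keratins present were 2 and at 0.5 FPKM they were 3. Of 23 claudin genes Cldn12 (16 ± 0.49 FPKM) was present, with 2 claudins when libraries were rescaled to 1e6. Of 20 connexins 3 were present, among them Gja1 (33.4 ± 4.57 FPKM) and Gjc1 (12.7 ± 1.12 FPKM), whereas Gjb2, the connexin of cochlear supporting cells whose loss is a common cause of deafness, was listed at 0.

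**Figure D3:**
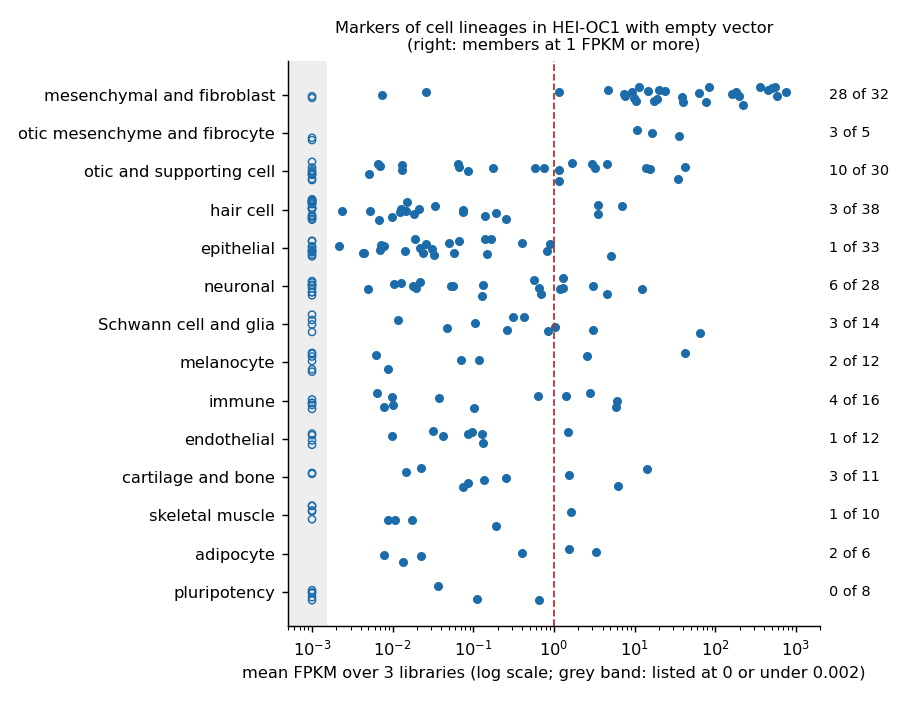
Mean FPKM over the 3 EV libraries, on a log axis, of each marker gene in 14 lineage lists; each point is a gene, open points in the grey band are genes listed at 0 or under 0.002 FPKM, and the dashed line marks 1 FPKM. The mesenchymal and fibroblast list lies mostly right of the line, with 28 of 32 genes, and the hair cell list mostly left of it, with 3 of 38.

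Most hair cell markers were under the limit, although the labels call the line one of cochlear hair cells. Of 38 genes, 3 or 7.89% were present, beside 48.8% of all protein-coding genes. In this list 19 genes were listed at 0 in all 3 libraries, 32 lay under 0.1 FPKM and the median was 0.0012 FPKM. These levels describe the culture as sampled, and other states of the line were not tested. The present genes were Myo6 (7.54, 6.89 and 6.68 FPKM), which encodes a myosin that moves towards actin minus ends and is also used in endocytosis elsewhere, Whrn (3.31, 3.56 and 3.80 FPKM), the scaffold whirlin of stereocilia tips, and Cib2 (2.41, 4.19 and 3.83 FPKM), a calcium-binding partner of the transduction channel. Myo7a, another deafness myosin used as a hair cell marker, had 0.224, 0.204 and 0.333 FPKM. The genes that define the cell type were at the floor. Atoh1 and Pou4f3 were listed at 0, as were the channel gene Tmc1, the synaptic Otof, the outer hair cell motor Slc26a5 (prestin) and Strc, which encodes stereocilin. Espn averaged 0.138 FPKM, Pcdh15 0.074 FPKM and the glutamate transporter Slc17a8 0.034 FPKM. Levels of this size do not show in what share of the cells a gene was transcribed.

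Other members of the same gene families were measured as well. Of 25 unconventional myosins 12 or 48.0% were present, near the 48.8% of all protein-coding genes, led by Myo1c (71.6 ± 0.55 FPKM), Myo10 (38.2 ± 1.03 FPKM), the filopodial motor, and Myo5a (28.3 ± 0.91 FPKM), a vesicle motor. Of 8 TMC genes Tmc4 was present (2.75, 2.06 and 2.44 FPKM). Calcium channel genes had 3 of 10 members present, Cacna1g (11.3 ± 0.33 FPKM), Cacna1a (4.17 FPKM) and Cacna1c (1.35 FPKM), while Cacna1d, which carries the presynaptic current of hair cells, averaged 0.0053 FPKM. None of 10 voltage-gated sodium channel genes was present, and the highest was Scn2a at 0.784 FPKM.

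The list of otic and supporting cell genes was mixed, with 10 of 30 present, 9 listed at 0 and a median of 0.066 FPKM. Its share present was 33.3%, beside 48.8% of all protein-coding genes. Eya1, a transcriptional cofactor gene of the otic placode, stood at 1.38, 1.06 and 1.00 FPKM, while Eya3 (8.51 ± 0.20 FPKM) and Eya4 (6.76 ± 1.63 FPKM), the gene of a dominant human deafness, were higher. Cdkn1b, the inhibitor that stops division of sensory progenitors, averaged 42.1 ± 9.18 FPKM and was highest in EV replicate 1 (52.7 FPKM). Bmp4 (15.4 ± 1.05 FPKM), Tbx1 (13.8 ± 2.36 FPKM), Isl1 (4.6 ± 0.34 FPKM), Lfng (3.19 ± 0.50 FPKM) and the Notch ligand Jag1 (2.95 ± 0.16 FPKM) were present too, several of which other tissues also use. Gata3, mutated in a human syndrome with deafness, had 1.45, 1.07 and 0.918 FPKM. The prosensory gene Sox2, the supporting cell factor Prox1 and Sox10 were listed at 0, and Pax2 and Pax8, of the otic placode, averaged 0.013 FPKM and 0.086 FPKM.

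Of 5 genes of otic mesenchyme and fibrocytes, 3 or 60% were present, which for so short a list is near the 48.8% of all protein-coding genes. Pou3f4, the X-linked deafness gene of the otic mesenchyme, had 21.6, 13.6 and 14.2 FPKM, highest in EV replicate 1. Tbx18, which is needed for fibrocyte differentiation in mice, had 11.0, 10.4 and 10.3 FPKM, and the matrix gene Emilin2 had 33.2, 37.3 and 37.3 FPKM. The products of mature fibrocytes, Coch and Otos, were listed at 0.

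Promoter stretches from RefSeq are shown for 3 genes that the description turns on, a mesenchymal gene at 754 FPKM, an otic mesenchyme gene at 16.5 FPKM and a hair cell factor listed at 0. Each covers the 250 bases before the RefSeq start on the plus strand of GRCm38.p6, at chr2:13574061-13574310 for Vim, chrX:110814129-110814378 for Pou3f4 and chr6:64728875-64729124 for Atoh1. Capitals mark matches to TATAAA on the gene's strand, and to CCAAT and GGGCGG on either strand (ATTGG and CCGCCC in reverse).
Vim: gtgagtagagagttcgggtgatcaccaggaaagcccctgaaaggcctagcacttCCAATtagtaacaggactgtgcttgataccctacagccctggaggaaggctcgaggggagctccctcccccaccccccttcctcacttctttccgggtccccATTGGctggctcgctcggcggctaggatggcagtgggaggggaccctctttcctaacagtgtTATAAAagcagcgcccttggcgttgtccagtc
Pou3f4: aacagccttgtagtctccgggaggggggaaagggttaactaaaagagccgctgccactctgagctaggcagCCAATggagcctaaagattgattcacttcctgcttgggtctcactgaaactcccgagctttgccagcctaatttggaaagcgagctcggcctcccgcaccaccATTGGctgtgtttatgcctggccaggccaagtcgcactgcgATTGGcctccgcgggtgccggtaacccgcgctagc
Atoh1: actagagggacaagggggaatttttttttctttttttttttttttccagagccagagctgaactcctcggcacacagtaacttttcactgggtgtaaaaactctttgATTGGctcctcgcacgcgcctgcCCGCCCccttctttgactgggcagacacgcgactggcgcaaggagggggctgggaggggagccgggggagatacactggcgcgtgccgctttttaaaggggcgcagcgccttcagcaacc
Vim held 1 TATAAA, which began 32 bases before the start, and 2 CCAAT matches, Pou3f4 held 3 CCAAT matches, and Atoh1 held 1 CCAAT and 1 GGGCGG match. In the 250 bases before the start of 32851 RefSeq promoters, TATAAA was found in 7.59%, CCAAT in 33.8% and GGGCGG in 32.7%. A match is only a run of letters and was not tied to the level of the gene. The Vim stretch lies inside the gene span of the deposited table (chromosome 2, 13573927 to 13582826), which starts further upstream than the RefSeq start.

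Markers of other lineages that a cochlear culture could hold were mostly under the limit. Their counts are to be read beside the 48.8% of all protein-coding genes that were present. Of 28 neuronal genes 6 were present, led by Map2 (12.4 ± 1.33 FPKM), Stmn2 (4.53 ± 0.47 FPKM) and Tubb3 (3.03 ± 0.11 FPKM), while Elavl4, Rbfox3 and Dcx were listed at 0. Schwann cell and glial genes had 3 of 14 present: Pmp22 at 65.5 ± 1.60 FPKM, a gene that fibroblasts also express, Prx at 3.02 ± 0.20 FPKM and Erbb3 at 1.02 ± 0.10 FPKM. The glial factors Sox10 and Foxd3 were listed at 0 there. Melanocyte genes had 2 of 12 present, the lysosomal Gpnmb (42.4 ± 1.94 FPKM) and the factor Mitf (2.55 ± 0.39 FPKM), without Tyr, Dct or Kit, all listed at 0. Immune genes had 4 of 16 present, Cd74 (6.0 ± 1.05 FPKM), Cd14 (5.85 ± 0.55 FPKM), Cd68 (2.84 ± 0.47 FPKM) and Lyz2 (1.41 ± 0.37 FPKM), with the pan-leukocyte Ptprc at 0.0099 FPKM and Aif1 and Adgre1 listed at 0. In the endothelial and skeletal muscle lists Flt1 (1.51 ± 0.11 FPKM) and Des (1.61 ± 0.13 FPKM) were the present genes, of 12 and 10. Of 11 cartilage and bone genes 3 were present, namely Sox9 (14.1 ± 1.27 FPKM), Runx2 (6.29 ± 0.31 FPKM) and Col2a1 (1.55 ± 0.16 FPKM), of 6 adipocyte genes Fabp4 (3.34 FPKM) and Pparg (1.56 FPKM), and of 8 pluripotency genes none, with Nanog highest at 0.659 ± 0.05 FPKM.

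Transcripts of the cell cycle were present throughout, 28 of 28 genes in that list, beside 48.8% of all protein-coding genes. Their median was 55.0 FPKM. The topoisomerase Top2a had 194, 184 and 176 FPKM, the replication clamp Pcna 195, 168 and 170 FPKM, and Mki67 74.8, 63.8 and 66.2 FPKM. The 3 libraries lay near each other for each of these genes. In the list of growth arrest and immortalisation, which holds p53, Rb, E2F and telomerase genes, 16 of 18 or 88.9% were present. Cdkn2a, the locus of the INK4A and ARF tumour suppressors, which the deposited level does not separate, had 482, 521 and 485 FPKM. Trp53, which encodes p53, averaged 52.8 ± 2.0 FPKM, and its target Cdkn1a averaged 31.2 ± 2.22 FPKM. Tert, the catalytic subunit of telomerase, stood at 0.406 ± 0.07 FPKM and Cdkn1c at 0.046 FPKM. None of the 5 Y-linked genes tested for was present, the highest being Uty at 0.0015 FPKM.

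Genes that carry hearing-damaging drugs, for which the line is used, were present in 8 of 22 cases or 36.4%, beside 48.8% of all protein-coding genes. The copper transporter Slc31a1, through which cisplatin can enter cells, had 46.2, 41.9 and 41.3 FPKM. Copper chaperone Atox1 averaged 50.7 ± 9.25 FPKM, highest in EV replicate 1 (61.4 FPKM), and the exporters Atp7a, Abcc1 and Abcb1b averaged 10.2 ± 0.28, 20.0 ± 1.37 and 11.5 ± 0.37 FPKM. The volume-regulated anion channel subunits Lrrc8a (5.86 ± 0.64 FPKM) and Lrrc8d (5.84 ± 0.45 FPKM) were present as well. The organic cation transporter Slc22a2, another route for cisplatin, was listed at 0, and so were Slc22a3, Trpv1 and Trpa1. For aminoglycosides, which enter hair cells through the transduction channel and kidney cells through megalin, Tmc1 was listed at 0 and Lrp2, the megalin gene, averaged 0.092 FPKM.

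Transcription factors were taken from 21 lists of gene families, which leave out many families such as AP-1 and KLF, so that the order below is one within the lists. Of 330 factors 139 were present, or 42.1%, beside 48.8% of all protein-coding genes, and 51 reached 10 FPKM. The nuclear receptor Nr4a1, an immediate early gene, was highest at 99.3, 97.3 and 91.5 FPKM. Nfix, of the nuclear factor I family, came next at 73.1 ± 2.16 FPKM. Foxp1 averaged 48.3 ± 10.4 FPKM with 55.4, 36.4 and 53.2 FPKM in the 3 libraries, and was low in EV replicate 2. The retinoic acid receptor Rarg (42.7 ± 0.58 FPKM), the limb and craniofacial mesenchyme factor Prrx1 (40.2 ± 4.17 FPKM) and Nr2f2 (34.9 ± 2.91 FPKM) were also among the highest. Foxm1, which drives mitotic genes, averaged 32.1 ± 0.98 FPKM and the nuclear factor I member Nfic averaged 30.5 ± 0.83 FPKM.

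**Figure D4:**
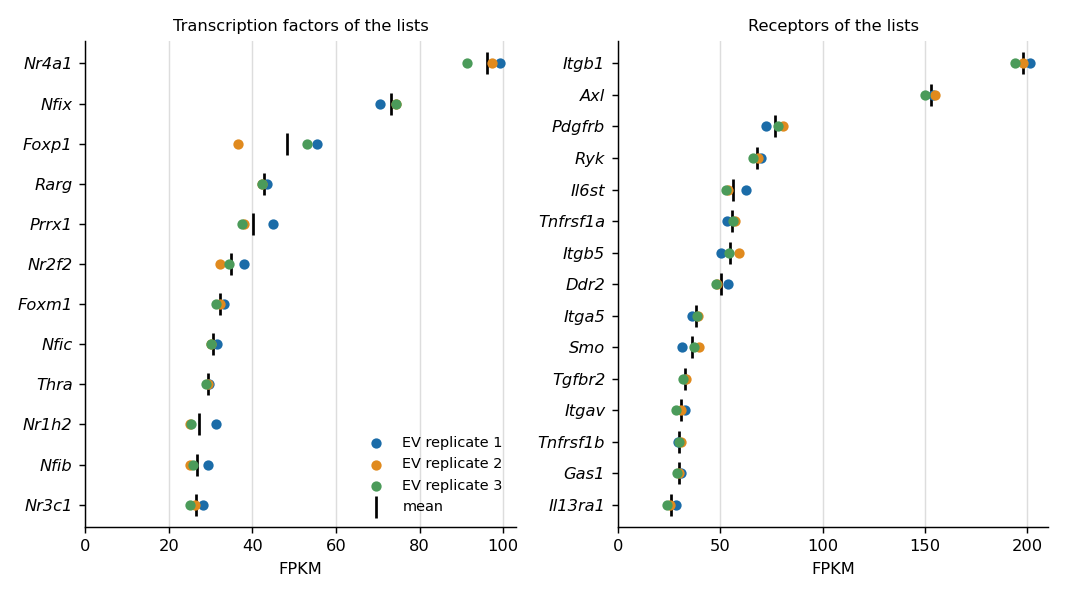
FPKM, on linear axes, of 12 of the 15 highest transcription factors (left) and the 15 highest receptors (right) among the listed families; coloured points are the 3 EV libraries and black bars their means. Nr4a1 and Itgb1 stand at the top, and Foxp1 is low in EV replicate 2.

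Within families a few members carried the level, and the counts are to be read beside the 48.8% of all protein-coding genes present. Of 20 Sox genes, Sry among them, 4 were present, Sox4 (18 ± 1.97 FPKM), Sox9, Sox12 (2.0 ± 0.29 FPKM) and Sox5 (1.26 ± 0.30 FPKM), and 11 were listed at 0. Of 9 Pax genes Pax3, a gene of neural crest and dermomyotome, was present, at 3.16, 2.38 and 2.69 FPKM. Of 15 POU genes, Pou6f1 (11.3 ± 0.43 FPKM) and Pou2f1 (2.40 ± 0.26 FPKM) stood beside Pou3f4, and of 12 LIM-homeodomain genes Lhx6 (3.0 ± 0.27 FPKM) beside Isl1. The T-box genes had 6 of 17 present, among them Tbx1, Tbx18 and Tbx15 (8.0 ± 0.06 FPKM). GATA factors were low and none had a mean of 2 FPKM or more, with Gata2 at 1.99 ± 0.11, Gata4 at 1.93 ± 0.09 and Gata6 at 1.51 ± 0.23 FPKM beside Gata3. Of 58 patterning homeodomain genes 19 were present, among them Prrx2 (12.7 ± 2.38 FPKM) and Shox2 (10.8 ± 1.00 FPKM). In contrast, some small families were complete or nearly so. Present were all 4 TEAD genes, all 8 SMAD genes with Smad4 highest (25.6 FPKM) and 6 of 7 STAT genes without Stat4 (0.082 FPKM). All 3 RUNX genes and all 4 TCF and LEF genes were present too.

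The Hox genes, which give position along the body axis, were present in 11 of 39 cases, beside 48.8% of all protein-coding genes. Their levels were low, so that the count moved with the limit. It was 7 at 2 FPKM and 19 or 20 when libraries were rescaled to 1e6. Summed over each cluster, Hoxa reached 33.6, 32.9 and 31.7 FPKM in EV replicates 1, 2 and 3, Hoxb 7.80, 6.19 and 6.22 FPKM, Hoxc 5.61, 6.58 and 7.68 FPKM and Hoxd 0.432, 0.122 and 0.103 FPKM. Most of the signal thus lay in the Hoxa cluster, where 7 of 11 genes were present, and none of the 9 Hoxd genes was. Hoxa7 was highest (9.80 ± 1.69 FPKM), then Hoxa5 (7.10 ± 1.51 FPKM), Hoxa10 (4.71 ± 0.21 FPKM) and Hoxa3 (3.75 ± 0.47 FPKM). The span of Hoxa3 in the table, 52169062 to 52213336 of chromosome 6, contains Hoxa4, Hoxa5 and Hoxa6, so reads of these genes may have been divided among them. Hoxb6 (2.71 ± 0.43 FPKM), Hoxb13 (1.62 ± 0.23 FPKM), Hoxc6 (2.59 ± 0.53 FPKM) and Hoxc4 (1.77 ± 0.15 FPKM) were present outside the Hoxa cluster, and Hoxb3 had 1.40, 0.459 and 0.634 FPKM.

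**Figure D5:**
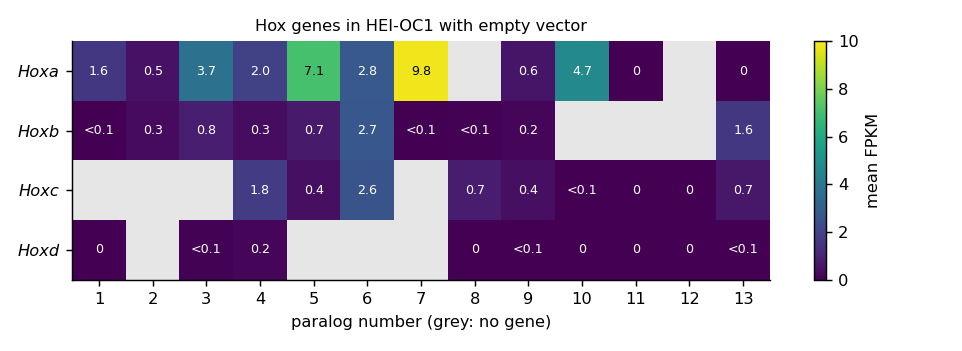
Mean FPKM of the 39 Hox genes over the 3 EV libraries, by cluster (rows) and paralog number (columns); colour and the printed value give the level, and grey fields hold no gene. Hoxa7 at 9.80 FPKM is the highest field, and no Hoxd field reaches 1 FPKM.

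Of 201 receptors listed, 103 or 51.2% were present, beside 48.8% of all protein-coding genes. The integrin beta chain Itgb1 was highest at 201, 198 and 194 FPKM, and with the alpha chains Itga5 (38.0 ± 1.44 FPKM) and Itgav (30.8 ± 2.14 FPKM) it forms receptors for fibronectin, whose gene is among those above. In all, 12 of 26 integrin genes were present. Receptor tyrosine kinases had 27 of 58 present. Axl, the receptor for GAS6, had 154, 155 and 150 FPKM, and the PDGF receptors Pdgfrb and Pdgfra, of mesenchymal cells, had 77.0 ± 4.17 and 20.2 ± 0.70 FPKM. Ryk, a Wnt coreceptor, averaged 68.1 ± 1.93 FPKM and the collagen receptor Ddr2 averaged 50.2 ± 3.34 FPKM. Met (13.5 ± 0.85 FPKM), Fgfr1 (16.8 ± 0.75 FPKM) and Egfr (2.93 ± 0.45 FPKM) were lower, and Kit, Erbb4 and Fgfr4 were listed at 0.

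Receptors of developmental pathways are given by family, to be read beside the 48.8% of all protein-coding genes that were present. Hedgehog components had 5 of 6 present, with Smo at 36.1 ± 4.15, the coreceptors Gas1 at 29.8 ± 0.96 and Cdon at 21.5 ± 1.20 and the receptor Ptch1 at 10.4 ± 0.53 FPKM. Among the nuclear effectors, Gli3 averaged 7.14 FPKM, while Gli1, a target that the pathway switches on, averaged 0.258 FPKM and Gli2 0.120 FPKM. Wnt receptors had 10 of 15 present, led by Lrp6 (23.5 ± 0.93 FPKM), Fzd6 (17.7 ± 0.85 FPKM) and Fzd2 (16.8 ± 1.48 FPKM). TGF-beta and BMP receptors had 9 of 14, led by Tgfbr2 (32.7 ± 0.62 FPKM). Notch receptors and ligands had 4 of 9, Notch2 (20.7 ± 0.60 FPKM), Notch3 (13.2 ± 0.42 FPKM), Notch1 (4.42 FPKM) and Jag1, and the ligands Dll1, Dll3 and Dll4 were each under 0.1 FPKM.

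Cytokine receptors were found in 20 of 24 cases with a median of 13 FPKM. This count and those below are to be read beside the 48.8% of all protein-coding genes that were present. Il6st, the shared chain of IL-6 family receptors, had 62.6, 53.8 and 52.6 FPKM and the TNF receptor Tnfrsf1a 53.3, 57.0 and 56.2 FPKM. Both are known from many cell types. Of 12 Toll-like receptors 5 were present, Tlr4 (5.95 ± 0.72 FPKM), the receptor for bacterial endotoxin, Tlr2 (3.56 ± 0.32 FPKM), Tlr3 (2.99 ± 0.27 FPKM), Tlr6 (1.56 FPKM) and Tlr1, whose libraries lay at 1.36, 1.07 and 0.640 FPKM. Of 18 purinergic and adenosine receptors 4 were present, P2rx4 (22 ± 2.14 FPKM), P2rx7 (4.36 ± 0.79 FPKM), P2rx5 (1.86 FPKM) and P2rx3 (1.22 FPKM), whereas P2rx2, the ATP receptor of hair cells, averaged 0.025 FPKM. The sphingosine receptor S1pr1 (14.2 ± 1.59 FPKM) and the lysophosphatidic acid receptor Lpar1 (9.05 ± 0.15 FPKM) led the 7 of 19 lipid receptors that were present.

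Of 133 secreted ligands listed, 35 or 26.3% were present, beside 48.8% of all protein-coding genes, and the chemokines stood highest. Cxcl12, which stromal cells release to attract CXCR4-bearing cells, had 146, 126 and 129 FPKM. The inflammatory Ccl2 had 121, 90.7 and 92.9 FPKM, Cxcl1 95.1, 80.3 and 77.7 FPKM and Ccl7 81.6, 76.6 and 75.2 FPKM, each of them highest in EV replicate 1. Of 35 chemokine genes 11 were present. Of 22 FGF ligands Fgf7, the fibroblast factor that acts on epithelia, was present, at 49.2, 39.2 and 37.2 FPKM, and the others lay under 1 FPKM. At a limit of 0.5 FPKM 3 FGF ligands counted as present, and 4 after rescaling to 1e6. Of 19 Wnt ligands Wnt5a (39.0, 35.2 and 30.1 FPKM) was present and Wnt6 lay around the limit at 0.979, 1.71 and 1.42 FPKM. PDGF and VEGF ligands had 7 of 9 present, with Vegfb (37.1 ± 6.45 FPKM), Vegfa (26 ± 2.27 FPKM) and Pdgfa (11.4 ± 1.05 FPKM), and the last is a ligand of the Pdgfra receptor named above. Neurotrophic factors had 4 of 9 present, of which Bdnf (11.6 ± 0.72 FPKM), a factor for the neurons that innervate the cochlea, and Gdnf (7.67 ± 0.65 FPKM) were highest.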

How the data were processed

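The authors deposited a table of values per gene and library, read here as FPKM. The headers give no unit; FPKM was read from unequal library totals and from low values that, once multiplied by transcript length, fall on regular steps. Per the submitters' processing notes, CASAVA 1.8, Trimmomatic, FastQC, HISAT2, RSEM and edgeR were used on GRCm38, but their roles are not stated there. BWA, TopHat and Cufflinks are named in the design text of the series, and the sources used here do not settle which made the table or whether counting used strand.

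EV columns were matched to replicates by the numbers in their titles. Means and SD over 3 libraries, presence at a mean of at least 1 FPKM and shares were computed with pandas 2.3.3 and numpy 2.4.6 under Python 3.11.15, and figures were drawn with matplotlib 3.10.9. No statistical test was run. Depth came from the commonest step of FPKM times length in 19776 genes with 1 transcript. The step was sought only within a fixed range, which bounds the estimate. The method was tested on simulated data whose depths lay in that range, so the test could not show a depth outside it. Gene spans equalled GENCODE M21 for 55442 of 55451 genes, and promoter sequences came from RefSeq.

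The members, the limit and the 68 gene lists, 17 of them added after the files were read, were chosen with earlier results of these data known. Genes are named as the 20 highest, the highest 6 members of a list at 1 FPKM or more, up to 10 members under it in list order, the 15 highest factors and receptors, and genes with libraries on both sides of the limit. Other genes were named after their values were seen. Some genes belong to more than 1 list. Alternatives were other limits, presence in every library, rescaling each library to 1e6, medians and leaving out each library. Some genes that the naming rule covers are not reported here.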

Additional observations from a re-analysis of the deposited data

How the results depend on the processing

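No paired analysis was possible because the results come from no test and only EV libraries were used. The count of present protein-coding genes stayed within 1.5 times of 10706 under each alternative tried. So did the mesenchymal, hair cell, otic and immune counts. A limit of 0.5 FPKM gave 3 epithelial genes in place of 1 and 1 pluripotency gene in place of 0. A limit of 2 FPKM left 3 neuronal genes, 1 adipocyte gene, 0 endothelial genes and 0 skeletal muscle genes. Rescaling to 1e6, over all genes or over protein-coding genes without mitochondrial ones, gave 4 epithelial, 5 Schwann cell and glial and 1 pluripotency gene. With each library left out in turn, the epithelial count was 1 to 2, the 2 without EV replicate 3. Rescaling over all genes amounts to a limit of 0.351, 0.343 and 0.340 FPKM in EV replicates 1, 2 and 3, so it adds genes under 1 FPKM by construction. At the limit of 1 FPKM itself, 23 of 1261 listed genes had libraries on both sides of it. Among the gene families, a limit of 0.5 FPKM gave 5 classical cadherins, 5 Dlx, 5 EGF family, 4 LIM-homeodomain, 4 Wnt ligand, 3 FGF ligand, 3 keratin, 2 Pax, 2 TMC and 1 sodium channel gene. Rescaling gave the same counts except 5 Wnt and 4 FGF ligands, and also moved Hox to 19 or 20, purinergic receptors to 7, neurotrophic factors to 7 and claudins to 2. A limit of 2 FPKM left 7 Hox, 3 Toll-like receptor, 2 purinergic, 2 Sox, 1 Dlx, 1 Wnt ligand and 0 GATA genes. Presence in every library left 1 Wnt ligand, and leaving out EV replicate 3 gave 2 keratins. Of the top 20 genes, 18 were shared with a ranking by medians, 17 without mitochondrial genes, and 16, 19 and 20 without EV replicates 1, 2 and 3. Without EV replicate 1, an alternative added after the data were seen, 11 of 607 listed or top genes at 1 FPKM or more moved by over 1.5 times, all of them mitochondrial. With no filter on low values, the lowest correlation between EV libraries was 0.996 in place of 0.987, and with a pseudocount of 0.1 it was 0.983. Depth, as estimated, limits statements on genes under about 0.1 FPKM.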

Other observations

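Outside the protein-coding class, the predicted miRNA gene Gm23935 on chromosome 16 had 136 FPKM in EV replicate 1, against 4960 and 6016 FPKM in EV replicates 2 and 3. Its gap between the libraries was the widest among the non-coding genes listed here. Its span is short, from 11144125 to 11144181. How many fragments these values rest on was not determined. The lincRNA Gm42418 on chromosome 17, which shares its span with the rRNA gene CT010467.1, had 2428, 1626 and 2166 FPKM. The nuclear RNA Malat1 had 279, 166 and 164 FPKM and Neat1 14.5, 10.4 and 10.6 FPKM, both highest in EV replicate 1, as were the mitochondrial rRNA genes mt-Rnr1 (777, 258 and 296 FPKM) and mt-Rnr2 (2350, 1018 and 1081 FPKM). Xist, transcribed from the inactive X chromosome of female cells, had 14.4, 10.5 and 10.5 FPKM. Of 183 genes of class protein_coding on the Y chromosome 1 was present, Gm47283 (3.38, 6.51 and 6.04 FPKM), at positions 90784738 to 90816464. The means of all 183 summed to 5.31 FPKM, so nearly all of that was Gm47283. Whether its reads came from the Y chromosome was not tested. The imprinted RNAs H19 and Meg3 averaged 0.071 FPKM and 0.0006 FPKM.

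Processed pseudogenes took 1.84% of all FPKM. Copies of ribosomal protein genes were among the highest, with Rpsa-ps10 at 729 ± 47.6 FPKM and Rps3a2 at 439 ± 88.9 FPKM, which is above its parent gene Rps3a1 (221 FPKM). The chaperonin gene Cct6a (194 ± 7.54 FPKM) and the lysosomal reductase gene Ifi30 (65.2 ± 6.74 FPKM) are classed as processed_transcript in the table, which kept them out of the ranking.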
